A study of Homo sapiens with 17 samples.

Results

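Histone genes were taken as those whose symbol begins with HIST1, HIST2, HIST3, HIST4, H1F, H2AF or H3F, in the union of the authors' 4 deposited tables. There were 47 of them among 1400 genes, comprising 5 H1, 12 H2A, 13 H2B, 9 H3 and 8 H4 genes. All 47 are annotated as protein coding. By their symbols, 45 were taken as genes of the replication-dependent clusters and 2 as variants, H1F0 and H1FX. RNA was measured in PC3, an established human line from prostate cancer, harvested 7 days after the cells were infected with a virus that encodes a short hairpin RNA (shRNA). Lentiviral shRNAs A and B were directed against MED25, a subunit of the Mediator complex that links transcription factors to RNA polymerase II. Retroviral shRNAs A and B were directed against ETV4, a transcription factor of the ETS family. Each shRNA had 3 libraries, the lentiviral control had 3 and the retroviral control had 2, which gives 17 libraries in 6 groups. All cells, controls included, had been infected. The labels describe the lentiviral control as carrying a luciferase shRNA and the retroviral one as carrying a control shRNA, while the series design text speaks of an empty vector.

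Each of the 4 tables sets 1 shRNA against its viral control and lists a log2 ratio and an adjusted p score for the genes the authors retained. Values are given below as log2 of knockdown over control, and percentages of control were computed from them. The direction was read from library numbers in the headers and from the sign of the targeted gene, so the decrease of the targets is no separate check. All genes in the tables are lower in the knockdown, by at least 1.5-fold, so a gene that is absent from a table cannot be called unchanged, and genes that rose were not analysed here. The tables carry no values for single libraries. No replicate spread, n or test of the authors' ratios can therefore be given, depth is unknown, and no difference between tables was tested. Nothing in the labels says whether replicates came from separate cultures, and PC3 markers could not be checked in lists of lowered genes. Both MED25 tables share their control libraries, as do both ETV4 tables, so agreement between the tables of 1 target is not independent. The targeted transcripts were lower in all 4 of the authors' deposited tables, MED25 to 51.6% (A) and 30.5% (B) of control, and ETV4 to 26.1% (A) and 15.8% (B).

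Histones are the proteins around which DNA is wound. Dimers of H2A and H2B join a tetramer of H3 and H4 to form the nucleosome core, and H1 binds the linker DNA where it enters and leaves. Most histone protein is made in S phase from replication-dependent genes, which lie in clusters named HIST1 to HIST4, lack introns and exist in many copies. Their mRNAs end in a conserved stem-loop bound by the stem-loop binding protein, instead of a poly(A) tail, and are degraded when DNA synthesis stops. Variant histones are made throughout the cell cycle from single genes outside the clusters, usually with polyadenylated mRNAs. Selection of poly(A) RNA for the libraries is neither stated nor denied in the labels, and in bulk RNA fewer cells in S phase and less histone mRNA per cell cannot be told apart.

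The stem-loop is shown first because it is the feature that the mRNAs of the replication-dependent genes share. The sequences below were read from GENCODE release 29 transcript models on GRCh38, a later build than the hg19 used by the authors. Capitals mark the 16 bases of stem, loop and stem, with 5 flanking bases on each side, 5′ to 3′, and T stands for U.
HIST1H2AE: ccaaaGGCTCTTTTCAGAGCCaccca
HIST1H2AG: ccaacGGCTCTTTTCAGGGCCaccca
HIST1H2BF: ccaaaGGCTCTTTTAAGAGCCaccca
HIST3H2BB: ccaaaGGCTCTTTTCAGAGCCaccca
HIST1H3H: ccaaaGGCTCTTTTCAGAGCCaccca
HIST1H4B: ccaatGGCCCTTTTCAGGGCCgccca
HIST1H4E: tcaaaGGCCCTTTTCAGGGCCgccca
Of the 45 replication-dependent members, 23 had a transcript model with at least 20 bases of 3′ untranslated region, and 19 of those contained a stem-loop of this form. The other 22 models ended at or near the stop codon, so nothing can be read from them. The form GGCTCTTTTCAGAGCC was found in 10 members of the H2A, H2B and H3 classes. All 5 H4 members with a match had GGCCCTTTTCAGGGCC, and 3 H2B members, HIST1H2BC, HIST1H2BD and HIST1H2BF, had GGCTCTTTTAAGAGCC. HIST1H2AG had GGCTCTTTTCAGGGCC. In 6 members a model ran past the stem-loop to an AATAAA polyadenylation hexamer within 60 bases of its end. The variants H1F0 and H1FX had no stem-loop and had AATAAA 26 and 22 bases from the end.

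Histone genes were most numerous after MED25 knockdown. The authors' deposited table for MED25 shRNA A listed 42 histone genes among 786, or 48.3% of the 87 protein-coding histone genes that the same symbols give in the annotation. For comparison, 3.55% of all 19969 annotated protein-coding genes were listed there. The MED25 shRNA B table listed 24 histone genes among 374, or 27.6% of the 87, against 1.67% of all coding genes. In the ETV4 shRNA A table the count was 9 of 495, or 10.3% of the 87, against 2.19% of all coding genes. The ETV4 shRNA B table listed 98 genes, of which 91 are annotated as coding (0.456% of all coding genes), and no histone gene. The genes the authors could test are not known, so annotated genes stand in as the denominator. Members of the list also share sequence and are not independent draws, and the shares were therefore not tested.

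**Figure D1:**
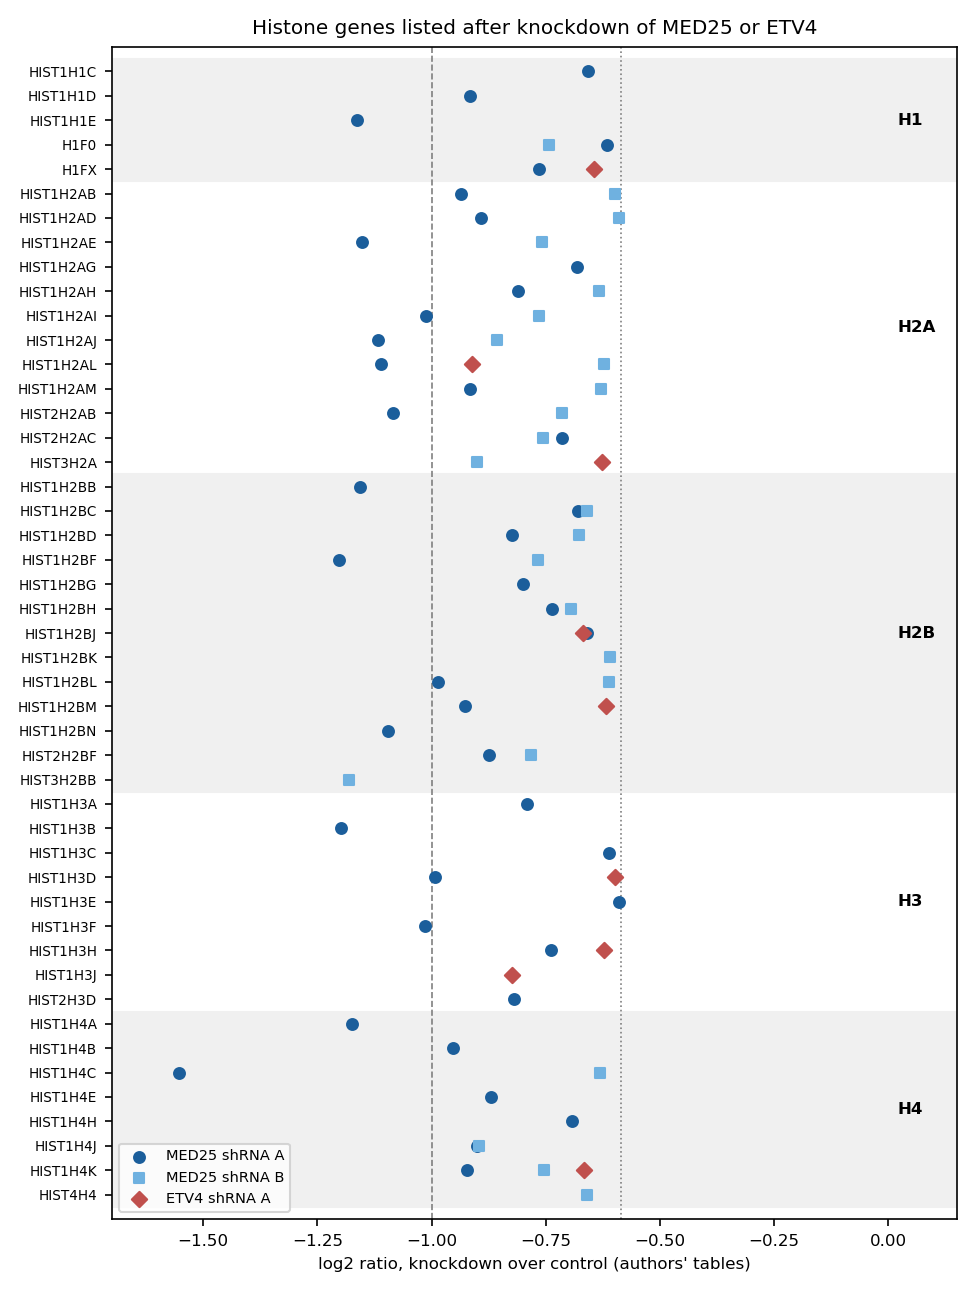
Log2 ratio of knockdown over control (horizontal axis) for each of the 47 histone genes (vertical axis), grouped by class, in the 3 tables that list any of them. The dashed line marks a 2-fold and the dotted line a 1.5-fold decrease. HIST1H4C with MED25 shRNA A lies farthest to the left at −1.55.

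The size of the decrease differed among the tables. In the authors' deposited table for MED25 shRNA A the histone genes had a median of −0.91, or 53.3% of control, beside −0.78 for all genes listed. At least a 2-fold decrease was reached by 13 of the 42, or 31.0%, against 24.0% of all listed genes. With MED25 shRNA B the median in the authors' deposited table was −0.70, or 61.4% of control, beside −0.77 for all, and 1 of 24 (4.17%) was lowered at least 2-fold, against 20.1% of all. With ETV4 shRNA A the median in the authors' deposited table was −0.64, or 64.0% of control, beside −0.79 for all, and 0 of 9 reached 2-fold, against 23.2% of all. For ETV4 shRNA B, where no histone gene was listed, the 2-fold share of all listed genes was 20.4%. Ranked by decrease, the leading histone gene stood at 26 of 786 for MED25 shRNA A, at 39 of 374 for MED25 shRNA B and at 154 of 495 for ETV4 shRNA A. Decreases of histone genes were thus larger than those of the typical listed gene with MED25 shRNA A and smaller with MED25 shRNA B and ETV4 shRNA A. MED25 itself was less reduced by shRNA A than by shRNA B.

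**Figure D2:**
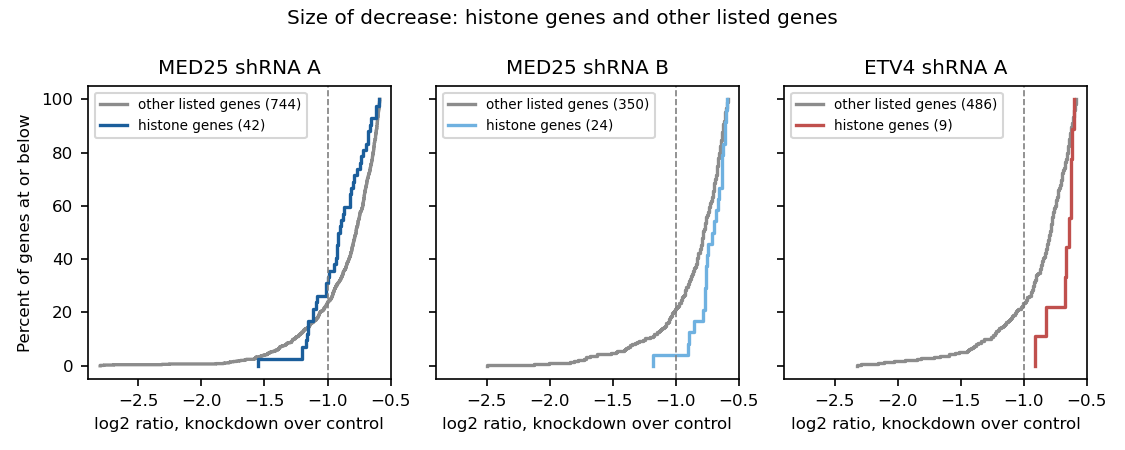
Cumulative percent of genes (vertical axis) at or below each log2 ratio (horizontal axis) for the histone genes and all other listed genes in 3 tables; the dashed line marks a 2-fold decrease. With MED25 shRNA A the histone curve lies mostly left of the others (median −0.91); with MED25 shRNA B and ETV4 shRNA A it lies to the right (medians −0.70 and −0.64).

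Linker histone H1 was represented by 5 members. In the authors' deposited table for MED25 shRNA A the replication-dependent HIST1H1E was at −1.16, or 44.6% of control, HIST1H1D at −0.92 and HIST1H1C at −0.66. None of these 3 was listed with MED25 shRNA B or with either ETV4 shRNA, and the other 3 annotated HIST1 linker genes, HIST1H1A, HIST1H1B and the testis form HIST1H1T, were in no table. The variant H1F0, a linker histone known to accumulate in non-dividing and differentiated cells, had ratios of −0.62 and −0.74 for MED25 shRNAs A and B in the authors' deposited tables. H1FX, another variant linker histone, had −0.77 for MED25 shRNA A and −0.64 for shRNA A of ETV4 in the authors' deposited tables.

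Among replication-dependent genes, H2A had the highest share listed in both MED25 tables, at 11 of 17 in each. The scores differed, since with shRNA A all 11 had at least 50. With shRNA B HIST1H2AB, HIST1H2AD, HIST1H2AH and HIST1H2AL had 30.7, 43.6, 43.7 and 43.9 in the authors' deposited table. For HIST1H2AE the authors' deposited tables gave −1.15 under shRNA A of MED25 and −0.76 under shRNA B. HIST1H2AJ was at −1.12 and −0.86, and its close copy HIST1H2AI at −1.01 and −0.76, in the same deposited tables of the authors. HIST2H2AB, from the HIST2 cluster, was at −1.08 and −0.71, and HIST2H2AC at −0.72 and −0.76, again in the authors' deposited tables for shRNAs A and B. HIST2H2AC, like H1F0, was lower with shRNA B than with shRNA A. HIST1H2AL was the H2A gene with values for 3 shRNAs: −1.11 and −0.62 for MED25 shRNAs A and B and −0.91 for ETV4 shRNA A, each from the authors' deposited tables. The last value, 53.2% of control, was the lowest of any histone gene in an ETV4 table. HIST3H2A was absent from the MED25 shRNA A table, and the authors' deposited tables gave it −0.90 under MED25 shRNA B and −0.63 under ETV4 shRNA A. HIST1H2AB, HIST1H2AD, HIST1H2AH and HIST1H2AM lay between −0.94 and −0.81 under MED25 shRNA A and between −0.63 and −0.59 under shRNA B, per the authors' deposited tables. HIST1H2AG was listed with MED25 shRNA A alone, at −0.68 in the authors' deposited table.

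Of 18 H2B genes, 11 were listed with MED25 shRNA A and 8 with shRNA B. HIST1H2BF was the lowest of the class with shRNA A, at 43.5% of control, and stood at 58.7% under shRNA B, per the authors' deposited tables. HIST3H2BB was absent from the shRNA A table, so its ratio there is not known. With shRNA B it was at −1.18, or 44.1% of control, in the authors' deposited table, the only histone gene lowered 2-fold by that shRNA. HIST1H2BB at −1.16, HIST1H2BN at −1.09 and HIST1H2BG at −0.80 were listed with shRNA A alone in the authors' deposited tables, and HIST1H2BK with shRNA B alone, at −0.61. HIST1H2BL had −0.99 under shRNA A and −0.61 under shRNA B, per the authors' deposited tables. HIST2H2BF was at −0.88 and −0.78, HIST1H2BD at −0.82 and −0.68, HIST1H2BH at −0.74 and −0.69 and HIST1H2BC at −0.68 and −0.66, in the authors' deposited tables for shRNAs A and B. These last 4 genes had similar values in both tables. In the authors' deposited tables HIST1H2BM and HIST1H2BJ had −0.93 and −0.66 under MED25 shRNA A, and −0.62 and −0.67 under ETV4 shRNA A.

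H3 genes were listed under shRNA A of either target but not under MED25 shRNA B. The authors' deposited table for MED25 shRNA A held 8 of 15 replication-dependent H3 genes. HIST1H3B was the lowest at −1.20, or 43.6% of control, followed by HIST1H3F at −1.01 and HIST1H3D at −0.99, in that deposited table of the authors. HIST2H3D, HIST1H3A, HIST1H3H, HIST1H3C and HIST1H3E ranged from −0.82 to −0.59 in the authors' deposited table. HIST1H3E was the histone gene closest to the limit of listing with this shRNA. With ETV4 shRNA A, 3 of 15 were listed, HIST1H3J at −0.82, HIST1H3H at −0.62 and HIST1H3D at −0.60, in the authors' deposited table. HIST1H3J was the only histone gene listed for ETV4 and for neither MED25 shRNA, and its score of 27.3 in the authors' deposited table was the lowest among the histone genes of that table.

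H4 genes held the lowest single value. HIST1H4C stood at 34.1% of control under MED25 shRNA A and at 64.6% under shRNA B, per the authors' deposited tables. HIST1H4A at −1.17, HIST1H4B at −0.95, HIST1H4E at −0.87 and HIST1H4H at −0.69 were listed in the authors' deposited table for MED25 shRNA A alone, and HIST4H4, a single gene on chromosome 12, in that for shRNA B alone at −0.66. In the authors' deposited tables HIST1H4J was at −0.90 with both MED25 shRNAs, and HIST1H4K at −0.92 and −0.75, with a further −0.67 under ETV4 shRNA A. In all, 7 of 15 H4 genes were listed with MED25 shRNA A, 4 with shRNA B and 1 with ETV4 shRNA A.

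**Figure D3:**
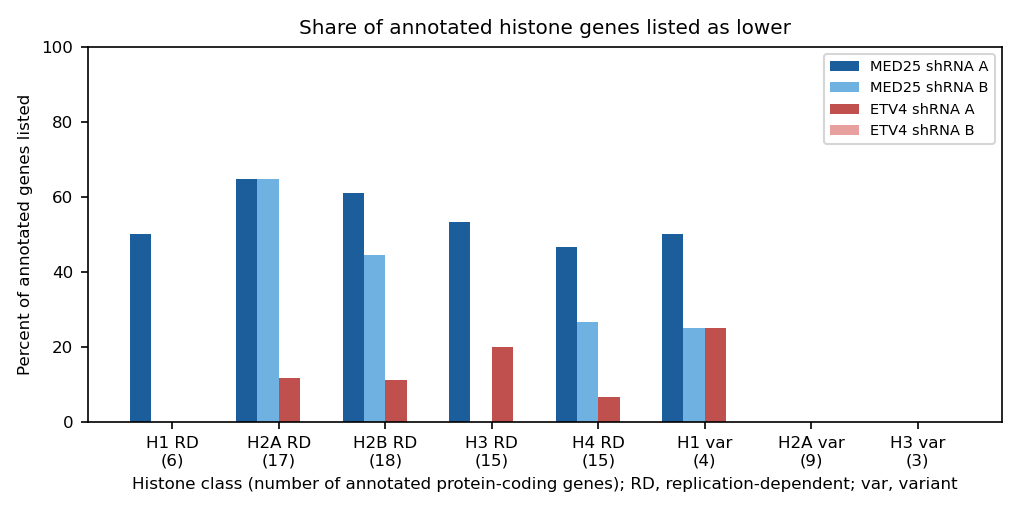
Percent of annotated protein-coding histone genes listed as lower (vertical axis) for each class and type (horizontal axis, number of annotated genes in brackets), with 1 bar per shRNA. Replication-dependent H2A genes reach 64.7% with both MED25 shRNAs, H3 genes 53.3% with MED25 shRNA A and 0% with MED25 shRNA B, and no variant H2A or H3 gene was listed. Listed genes are counted whatever their score.

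Replication-dependent genes made up nearly all of the list. With MED25 shRNA A 40 of 71 were listed (56.3%), with MED25 shRNA B 23 (32.4%), and with the ETV4 shRNAs 8 (11.3%) and 0. Variants numbered 2, 1 and 1 of 16 in the first 3 tables, and each was a linker histone. These are 12.5%, 6.25% and 6.25%, against 3.55%, 1.67% and 2.19% of all coding genes. None of the 9 annotated H2A variants was listed in any table, among them H2AFX, H2AFZ and H2AFY, which encode the damage-marking H2A.X, H2A.Z and macroH2A, nor were H3F3A and H3F3B, which encode the replacement histone H3. At the shares of all coding genes, a count of 0 among 9 H2A or 3 H3 variants says nothing particular about them. H2AFX is also the 1 unlisted variant whose transcript model held a stem-loop. The 40 annotated genes in no table were 26 replication-dependent genes, 4 of them testis forms, and 14 variants. Some of these genes have near-identical duplicates, such as HIST2H2AA3 with HIST2H2AA4, and the counting of reads that match several places is not given in the labels.

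Most members lie in HIST1 on chromosome 6, the largest histone cluster, with 38 of the 47. The HIST2 cluster on chromosome 1 held 4 members, HIST3 on chromosome 1 held 2 and HIST4 on chromosome 12 held 1. With MED25 shRNA A 36 of 55 HIST1 genes (65.5%) and 4 of 12 HIST2 genes (33.3%) were listed, and none of HIST3 or HIST4. With MED25 shRNA B the counts were 17 of 55 (30.9%), 3 of 12 (25.0%), 2 of 3 and 1 of 1. ETV4 shRNA A listed 7 of 55 HIST1 genes (12.7%) and 1 of 3 HIST3 genes. HIST1 falls into 3 stretches when it is divided at gaps of more than 500000 bases. The first, from HIST1H2AA to HIST1H4H, has 34 genes, of which 23, 8 and 1 were listed with MED25 shRNA A, MED25 shRNA B and ETV4 shRNA A. In the middle stretch, from HIST1H2BJ to HIST1H2AH, the counts were 3, 2 and 1 of 5. The third, from HIST1H2BL to HIST1H2BO, had 10, 7 and 5 of 16. Thus 5 of the 7 HIST1 genes listed with ETV4 shRNA A lay in the third stretch, HIST1H3H, HIST1H2BM, HIST1H4K, HIST1H2AL and HIST1H3J. Of these, HIST1H3H, HIST1H4K and HIST1H3J had scores of 46.8, 42.5 and 27.3 in the authors' deposited table. They were the only 3 histone genes with a score under 50 for that shRNA. The count in this stretch thus rests partly on low scores and was not tested. With MED25 shRNA A unbroken runs of listed genes reached from HIST1H3A to HIST1H4C (9 genes), from HIST1H3D to HIST1H1D (8) and from HIST1H2BL to HIST1H2BN (8), while the 4 genes from HIST1H1B to HIST1H3J were all unlisted. At a listed share of 65.5%, runs can also arise where genes are listed separately, and the runs were not tested. The first stretch also contains 7 protein-coding genes that are not histone genes, and 0 of these 7 were listed in any of the 4 tables. At the shares listed over all coding genes, 3.55% at most, a count of 0 among 7 genes shows no contrast with the histone genes.

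**Figure D4:**
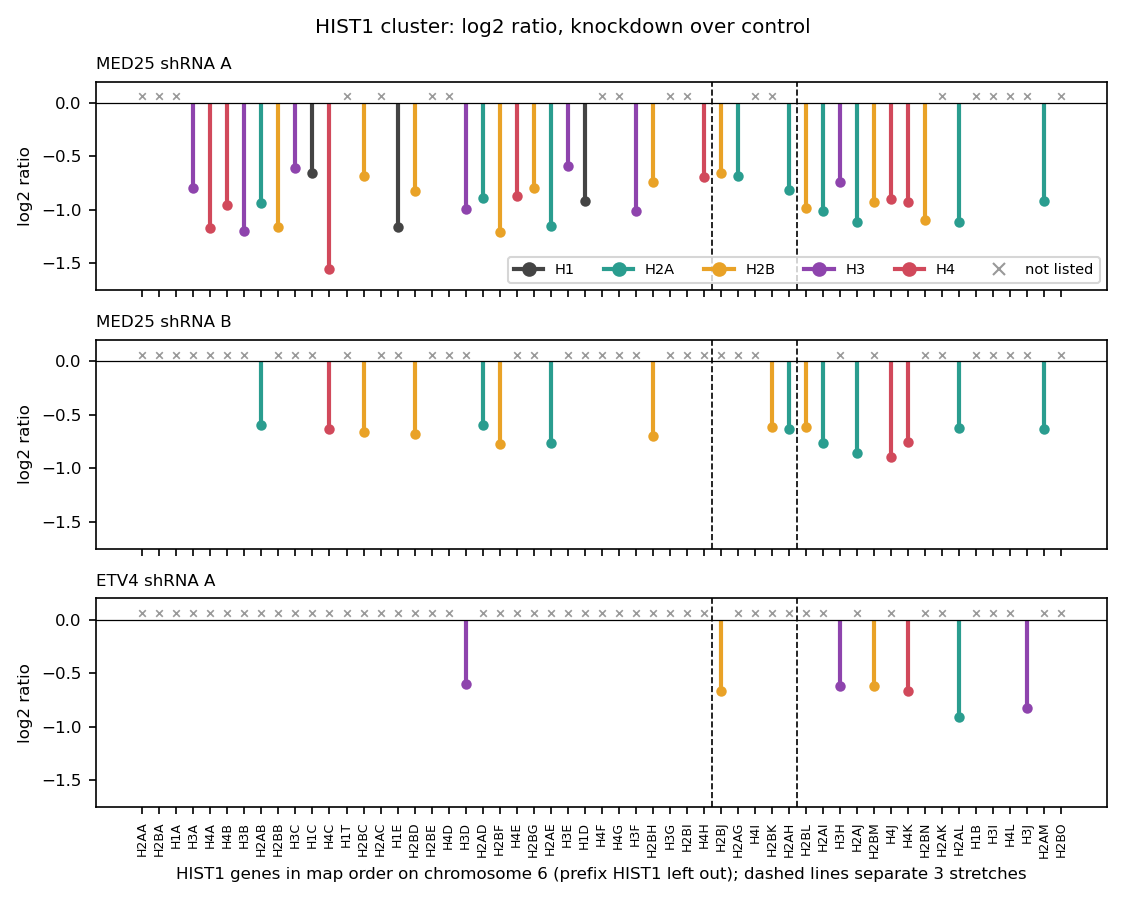
Log2 ratio of knockdown over control (vertical axes) for the 55 coding HIST1 genes in map order (horizontal axis), coloured by class, in 3 tables; crosses mark genes that are not listed and dashed lines separate the 3 stretches. Listed genes number 36, 17 and 7 from top to bottom, and 5 of the 7 in the bottom panel lie in the third stretch.

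Many H2A and H2B genes are arranged in pairs that start close together and are read in opposite directions. The annotation held 12 such pairs with starts within 1000 bases, 11 of them of an H2A and an H2B gene. Both partners were listed in 5 pairs with MED25 shRNA A and in 4 with MED25 shRNA B, and 1 partner alone in 4 and 5 pairs. Of all replication-dependent H2A and H2B genes, 64.7% and 61.1% were listed with shRNA A, and 64.7% and 44.4% with shRNA B. At such shares whole pairs also arise where partners are listed separately, so these counts show nothing particular about pairing. With ETV4 shRNA A 4 pairs had 1 listed partner and 0 had both. Of the 5 pairs listed whole with MED25 shRNA A, the partners' log2 ratios in the authors' deposited table differed by 0.02 to 0.35, beside a standard deviation of 0.21 over the histone genes there. With MED25 shRNA B the 4 whole pairs differed by 0.02 to 0.28 in the authors' deposited table, beside a standard deviation of 0.13 over the histone genes there. Among the closer pairs, in the authors' deposited tables HIST1H2BL and HIST1H2AI had −0.99 and −1.01 under MED25 shRNA A, and −0.61 and −0.76 under shRNA B. The widest apart were HIST1H2BG at −0.80 and HIST1H2AE at −1.15 in the authors' deposited table for MED25 shRNA A. The pair of HIST3, HIST3H2A and HIST3H2BB, had −0.90 and −1.18 under MED25 shRNA B in the authors' deposited table, and neither gene was listed under shRNA A.

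The copies are similar enough for reads to match several genes. From annotated coding sequences, the 47 members encode 27 distinct proteins, 5 for H1, 8 for H2A, 11 for H2B, 2 for H3 and 1 for H4. Coding identity to the most similar gene of the same class had a median of 89.1% and ran from 57.1% to complete identity. It was at least 95% for 5 members, and 16 members shared an unbroken identical run of at least 50 bases with that gene. HIST1H4J and HIST1H4K have identical coding sequences, HIST1H2AI and HIST1H2AJ are 96.4% identical, and HIST2H3D is 98.8% identical to HIST2H3PS2, which was in no table. The values of these 5 members are uncertain as values of single genes. HIST1H4K was listed with ETV4 shRNA A and HIST1H4J was not. By contrast HIST1H4C, HIST1H3B and HIST1H1E, which led their classes with MED25 shRNA A, are not among these genes. Their longest identical runs with the most similar gene were 23, 29 and 29 bases.

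Promoter sequences are shown for 1 gene of each class listed with MED25 shRNA A, so that the motif counts can be read against real windows. They come from RefSeq on GRCh38.p14, where all 47 members were matched and 42 had a promoter window. Each run is the 150 bases before the annotated start, 5′ to 3′ on the gene's strand. Capitals mark, on either strand, the octamer ATTTGCAT, CCAAT, the TATA-box letters TATAAA and the ETS core CCGGAAG.
HIST1H1E (chr6:26156179-26156328, plus strand): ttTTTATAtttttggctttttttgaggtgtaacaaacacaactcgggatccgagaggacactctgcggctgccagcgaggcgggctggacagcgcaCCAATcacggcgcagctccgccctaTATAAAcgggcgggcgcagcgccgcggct
HIST1H2AB (chr6:26033619-26033768, minus strand): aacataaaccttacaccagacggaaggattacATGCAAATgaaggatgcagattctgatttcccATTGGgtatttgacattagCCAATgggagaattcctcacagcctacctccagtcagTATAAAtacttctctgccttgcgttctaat
HIST1H2BF (chr6:26199366-26199515, plus strand): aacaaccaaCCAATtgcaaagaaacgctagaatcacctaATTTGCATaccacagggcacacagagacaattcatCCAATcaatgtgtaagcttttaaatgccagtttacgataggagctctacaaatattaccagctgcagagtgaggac
HIST1H3B (chr6:26032100-26032249, minus strand): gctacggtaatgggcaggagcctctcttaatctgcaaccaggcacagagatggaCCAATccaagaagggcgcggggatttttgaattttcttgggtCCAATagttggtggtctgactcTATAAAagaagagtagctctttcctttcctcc
HIST1H4B (chr6:26027284-26027433, minus strand): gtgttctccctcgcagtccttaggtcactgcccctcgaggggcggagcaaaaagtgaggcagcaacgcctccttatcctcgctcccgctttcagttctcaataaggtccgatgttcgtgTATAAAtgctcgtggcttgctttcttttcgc
In the 250 bases before the start, searched on both strands, the octamer was present in 19 of the 42 members (45.2%), 1.66% of 27305 promoters of all genes and 21.1% of the histone genes in no table. It was found in 9 of 11 H2A and 9 of 13 H2B members, in 1 of 8 H3 members, HIST1H3D, and in none of 4 H1 or 6 H4 members. The HIST1H3D window with the octamer is the same DNA as that of HIST1H2AD, and the window of its other annotated start has none. Windows of genes read in opposite directions also overlap, so that 1 octamer can count for both partners. When overlapping windows were merged, the 42 gave 35 regions, of which 6 were shared by 13 members, and 14 of the 35 held the octamer. This octamer is the site known to be bound by POU2F1 in H2B promoters. CCAAT was present in 35 of 42 (83.3%), against 33.0% of all promoters and 84.2% of unlisted histone genes, including all H2A, H2B and H3 members with a window and none of the H4 members, and in 28 of the 35 merged regions. TATAAA was present in 29 of 42 (69.0%), against 11.1% of all promoters and 19 of 38 unlisted histone genes, and in 25 of the 35 merged regions. The ETS core CCGGAAG was present in 0 of 42, against 8.82% of all promoters and 7.89% of unlisted histone genes. A second annotated start of HIST1H3E had a window that held it. The unlisted histone genes differ in class and type from the members, since 14 of the 40 are variants, against 2 of the 47 members. Of the 8 unlisted genes with the octamer, all but H3F3B are replication-dependent H2A or H2B genes. Shares of members and of unlisted genes are thus not matched by class, and no motif can be tied to being listed. These are letter matches in a fixed window and say nothing of binding.

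Between the targets, which have separate controls, 46 members were listed for at least 1 MED25 shRNA and 9 for at least 1 ETV4 shRNA, all with ETV4 shRNA A. The 8 in both sets were H1FX, HIST1H2AL, HIST3H2A, HIST1H2BJ, HIST1H2BM, HIST1H3D, HIST1H3H and HIST1H4K. That is 88.9% of the ETV4 members and 17.4% of the MED25 members. Over all genes, 143 were listed for both targets, which is 26.7% of the 536 for ETV4 and 14.2% of the 1007 for MED25. Since 46 of the 87 annotated histone genes were listed for MED25, much overlap with the 9 ETV4 members follows from that share alone. The 26.7% over all genes is therefore not a like background for the 88.9%, and the overlap was not tested. For 7 of the 8 the lowest ratio in an authors' deposited table was with a MED25 shRNA, and HIST1H2BJ was at nearly the same value for both, −0.66 and −0.67. The number of members and their share of each table differ between targets, and no test of that difference can be made from these tables.

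Genes that act on histones or their mRNAs, or that belong to the cell cycle, were counted in the same way, beside the 3.55% (MED25 shRNA A) and 2.19% (ETV4 shRNA A) of all coding genes listed. None of 17 genes for histone gene transcription and mRNA 3′ end processing, among them SLBP, NPAT and POU2F1, was listed in any of the 4. Of 23 histone chaperones and chromatin assembly factors, 1 (4.35%) was listed with MED25 shRNA A, IPO4, an importin that carries histones, at −0.63 in the authors' deposited table. Of 35 genes of DNA replication and S phase, 1 (2.86%) was listed, E2F1, the transcription factor of the G1/S transition, at −0.61 with MED25 shRNA A and a score of 21.8 near the lower end in the authors' deposited table. Of 20 G2 and mitosis genes, 3 (15.0%) were listed with MED25 shRNA A: the kinase gene PLK1 at −0.70 and the B-type cyclin genes CCNB2 at −0.68 and CCNB1 at −0.59 in the authors' deposited table. Of 10 CDK inhibitors and pocket proteins, 1 was listed, CDKN2B, which encodes an inhibitor of CDK4 and CDK6, for which the authors' deposited tables gave −1.46 under MED25 shRNA A and −1.22 under ETV4 shRNA A. No gene of these 5 lists was listed with MED25 shRNA B or ETV4 shRNA B, where 1.67% and 0.456% of all coding genes were listed. At such shares their absence says nothing particular about them. Shares of the first 3 lists lie near those of all coding genes and say nothing particular about them, that of G2 and mitosis genes is higher, and lists this small were not tested. The share of cells in each phase was not measured in these files, and its part in the histone values was not tested.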

How the data were processed

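RNA of PC3 cells was sequenced. Per the submitters' processing notes, the aligner was Novoalign 3.08.02 and the genome hg19. The labels name no counter, use of strand, annotation, scaling or test, and these stay not given in the sources used here. Per the file headers, the authors deposited a log2 ratio and an adjusted p, here called a score, for each listed gene. The scale of the score is not stated, and its lowest value was just above 20 in every table. The library number that both tables of a target share was taken for the control, and MED25 ratios were turned round accordingly. No library-level values were used, so there is no depth, precision, spread or test.

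Members were matched to GENCODE release 29 by identifier (26) or symbol (21). Stem-loops, coding identity and neighbours came from its GRCh38 transcripts and promoters from RefSeq, all on a later build than the files. Every member was named, with the targets and up to 4 listed genes per related list and table. The unlisted histone genes named were chosen after the values were seen. Members and lists were chosen with earlier results of these data known. The merging of overlapping promoter windows was added after the values were seen. The membership rule was run on simulated lists whose histone symbols it had itself selected, so recovery was fixed in advance and tests nothing. Alternatives were an absolute log2 ratio of at least 1, a score of at least 50, identical proteins counted once, coding members alone, a wider symbol rule and another denominator. Python 3.11.15, pandas 2.3.3, numpy 2.4.6, Biopython 1.88 and matplotlib 3.10.9 were used.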

Additional observations from a re-analysis of the deposited data

How the results depend on the processing

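All values here come from the authors' deposited tables, without replicate error. With genes of an absolute log2 ratio of at least 1 alone, the members numbered 13 with MED25 shRNA A (median −1.15, 13 replication-dependent, 0 variants), 1 with MED25 shRNA B (−1.18, 1 replication-dependent, 0 variants) and 0 with ETV4 shRNA A (0 of either type, so no median), and 0 were listed for both targets. With a score of at least 50, members fell from 42 to 35 with MED25 shRNA A, from 24 to 16 with MED25 shRNA B and from 9 to 6 with ETV4 shRNA A. Medians were then −0.93 with MED25 shRNA A and −0.75 with MED25 shRNA B. Replication-dependent members numbered 15 with MED25 shRNA B and 5 with ETV4 shRNA A, and 5 members were listed for both targets. E2F1 was then lost, which left 0 S phase genes. With members of identical translated GENCODE protein counted once, 24 remained with MED25 shRNA A, 22 of them replication-dependent, and medians were −0.92 there, −0.76 with MED25 shRNA B and −0.67 with ETV4 shRNA A. The planned RefSeq proteins were not used. Coding members alone (20 values) returned the reported values, since all 47 members are coding. The wider symbol rule (4 values) did so too, since it added 0 genes to any table. With annotated genes of every type as denominator (4 values), 121 genes replaced 87. Every share was therefore scaled by the same ratio, which is within 1.5 times. The outcomes for coding members alone, the wider symbol rule and the other denominator were fixed by the gene lists. Those alternatives therefore test nothing about robustness. Counts of members listed with both shRNAs of a target were planned and not made, because those tables share control libraries. No paired analysis was possible because the tables hold no library-level values, and for the same reason leaving out replicates was not run.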
